A study of Bos taurus with 12 samples.

Results

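Albumin (ALB, ENSBTAG00000017121) and apolipoprotein A1 (APOA1, ENSBTAG00000002258) were followed as 2 of 27570 genes in the liver transcriptomes of 12 Holstein dairy calves. They were chosen by identifier as a pair of plasma protein genes, not by a measured value, though with earlier results of these data known. The symbols were assigned with the choice of the genes, since the deposited tables list identifiers only, and that pairing was not checked here. The study asked how heat stress before weaning, compared with cooling, bore on the liver transcriptome. All calves were group housed, and from birth to weaning 6 were under postnatal heat stress and 6 under postnatal cooling. Liver was taken by biopsy at 42 days of age, and total RNA was sequenced, with 1 table of read counts per gene for each calf.

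Albumin is the main protein of blood plasma. It is made by hepatocytes and secreted, holds water in the circulation by its osmotic pressure, and carries fatty acids, bilirubin, hormones and metal ions. Apolipoprotein A1 is the main protein of high-density lipoprotein, made in liver and intestine, and activates the enzyme LCAT, which esterifies cholesterol on that particle. In cattle high-density lipoprotein carries most of the plasma cholesterol, and albumin is known to fall in plasma during an acute phase response. Transcription of both genes in hepatocytes depends on liver-enriched factors such as HNF4A.

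Total counts ran from 22910846 to 32240168 per library. Of 27570 genes, 21975 had a count in some calf and 14924 were tested, both members among them. With edgeR's quasi-likelihood test 0 of 14924 genes (0%) differed between the groups at a Benjamini-Hochberg adjusted p under 0.05, 1399 (9.37%) had an unadjusted p under 0.05, DESeq2 called 13 of 21125 genes (0.0615%) and limma-voom 0. Over the other 14922 tested genes, log2 CPM of cooled calves 2 and 3 correlated at r = 0.990, above each of the other 65 pairs of calves (0.939 to 0.977). This r is across genes, which are not independent replicates. The 2 members differed little within that pair: ALB by 0.06 in log2 CPM, the sixth smallest of 66 pairwise differences, and APOA1 by 5.65e-05, the smallest of 66. No date, lane, sire or batch is given in the labels. Libraries were treated as separate calves, as the series describes them. If cooled calves 2 and 3 share an animal, the cooled group holds fewer animals than libraries. Its spread between animals can then be understated, and the group tests give p-values that are too small. With the pair summed, the edgeR unadjusted p rose from 0.0843 to 0.157 for APOA1 and from 0.588 to 0.706 for ALB.

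ALB was the most abundant transcript by count in 11 of 12 livers. Its share of all counts ran from 4.64% in the lowest cooled calf through a median of 5.97% to 8.07% in the highest. In the heat-stressed calves it ran from 1.81% through a median of 7.76% to 9.82%. The groups overlapped: heat-stressed calves 1, 2 and 6 lay above every cooled calf, calf 5 lay below every cooled calf, and calves 3 and 4 lay between the cooled extremes. The mean share was 6.00% ± 1.24 (SD, n = 6) in cooled and 6.93% ± 3.11 (SD, n = 6) in heat-stressed calves. An exact permutation test of the means gave p = 0.524 (two-sided). Their difference, 0.925 percentage points, was less than the SD of either group. Counting error was small beside that spread, since the 95% Wilson interval of the largest share, in heat-stressed calf 1, ran from 9.81% to 9.83%. It covers counting error only.

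The exception to the first rank was heat-stressed calf 5, where ALB took 508531 counts and ranked seventh. Its share of 1.81% had a 95% Wilson interval from 1.81% to 1.82%, and the most abundant other gene there had 2.61 times as many counts. In the other 11 livers the next gene had between 0.398 and 0.930 times the ALB count. The next-lowest heat-stressed calf, calf 4, held 4.83%, which is 2.67 times the share of calf 5. The total of calf 5, 28065098 counts, lay inside the range of the other libraries, as did its 18376 genes with a count and its TMM factor of 0.943 (a scaling factor for library composition). Its composition did not: the 10 most abundant genes other than ALB took 24.1% of its counts, against 15.0% to 19.5% in the other 11 livers. In bulk liver, fewer hepatocytes and less ALB RNA per hepatocyte cannot be told apart. Markers of other liver cell types could not be matched to the identifiers, so their part in the low ALB level was not tested.

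Levels scaled between libraries had the same highest and the same lowest calf. In CPM (counts scaled to a common library total, after TMM correction for composition), ALB stood at 59931 ± 9683 (SD, n = 6) in cooled and 67618 ± 27927 (SD, n = 6) in heat-stressed calves. The highest cooled calf was 1.55 times the lowest, and the highest heat-stressed calf 4.69 times the lowest. On this scale 0 of 6 heat-stressed calves lay within the cooled range of 49784 to 77045 CPM, with 4 above it and 2 below. This pattern was picked after the values were seen, and 311 of 14924 tested genes (2.08%), ALB included, had it. The reverse, all 6 cooled calves outside the heat-stressed range on both sides, held for 32 genes (0.214%). The margins were narrow for heat-stressed calf 4 at 49187 CPM and calf 6 at 77942 CPM, and on the unscaled share 2 heat-stressed calves fell inside the cooled range.

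The fitted group difference for ALB was small against its error. The log2 fold change, heat-stressed over cooled, was 0.17 (SE 0.314), a ratio of 1.13 with a 95% interval from 0.710 to 1.79 (edgeR quasi-likelihood test, adjusted p = 0.828). The interval therefore leaves room for a level up to 1.79 times higher or, read the other way, up to 1.41 times higher in cooled calves. The plain means of log2 CPM, which weigh the low value of calf 5 more, were 15.86 in cooled and 15.88 in heat-stressed calves (exact permutation test, two-sided, p = 0.981). Without heat-stressed calf 5 the fitted log2 fold change was 0.37 (SE 0.211, edgeR adjusted p = 0.402). With 1 surrogate variable in the design it was -0.06, so the sign of the difference depended on the design.

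APOA1 took far fewer counts than ALB and stood between rank 115 and rank 518 of all genes by count. These ranks are of counts and not per length, so they do not compare the molar levels of the 2 transcripts. In cooled calves its share of all counts ran from 0.0352% through a median of 0.0728% to 0.0808%. In heat-stressed calves it ran from 0.0234% through a median of 0.0388% to 0.0757%. The groups overlapped: by share, heat-stressed calves 1, 2 and 5 lay below every cooled calf, and calves 3, 4 and 6 lay within the cooled range. In CPM heat-stressed calf 5, at 359.7, stood above cooled calf 6, at 343.9. On that scale 2 heat-stressed calves lay below the cooled range and 4 within it. Among the cooled calves, 5 of 6 held at least 0.0607%, and calf 6 was apart from them at 0.0352%. The lowest count, 6254 in heat-stressed calf 1, put the 95% Wilson interval of its share at 0.0228% to 0.0240%.

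Mean APOA1 was lower in the heat-stressed calves, but with all calves kept no test given here had a p under 0.05. The share was 0.0671% ± 0.0175 (SD, n = 6) in cooled and 0.0457% ± 0.0207 (SD, n = 6) in heat-stressed calves (exact permutation test, two-sided, p = 0.0909). In CPM it was 679.7 ± 195.3 (SD, n = 6) and 460.6 ± 220.4 (SD, n = 6). The plain means of log2 CPM were 9.35 in cooled and 8.70 in heat-stressed calves (exact permutation test, two-sided, p = 0.113). The log2 fold change was -0.56 (SE 0.304), a ratio of 0.678 with a 95% interval from 0.433 to 1.06 (edgeR quasi-likelihood test, unadjusted p = 0.0843, adjusted p = 0.551). At this unadjusted p, APOA1 ranked 2267 among 14924 genes. Neither member was called, 0 of 2, where 0% of all tested genes were. APOA1 kept a negative log2 fold change under every alternative tried, from -0.87 with limma-voom quality weights (limma adjusted p = 0.1103) to -0.41 without heat-stressed calf 1 (edgeR adjusted p = 0.834). Leaving out cooled calf 6 or heat-stressed calf 6 brought the exact permutation p of the share difference to 0.0346 in either case, the lowest over left-out calves. Leaving out heat-stressed calf 1 raised it to 0.173, and summing cooled calves 2 and 3 raised it to 0.160. With those 2 summed, the log2 fold change was -0.48 (edgeR unadjusted p = 0.157, adjusted p = 0.710).

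**Figure D1:**
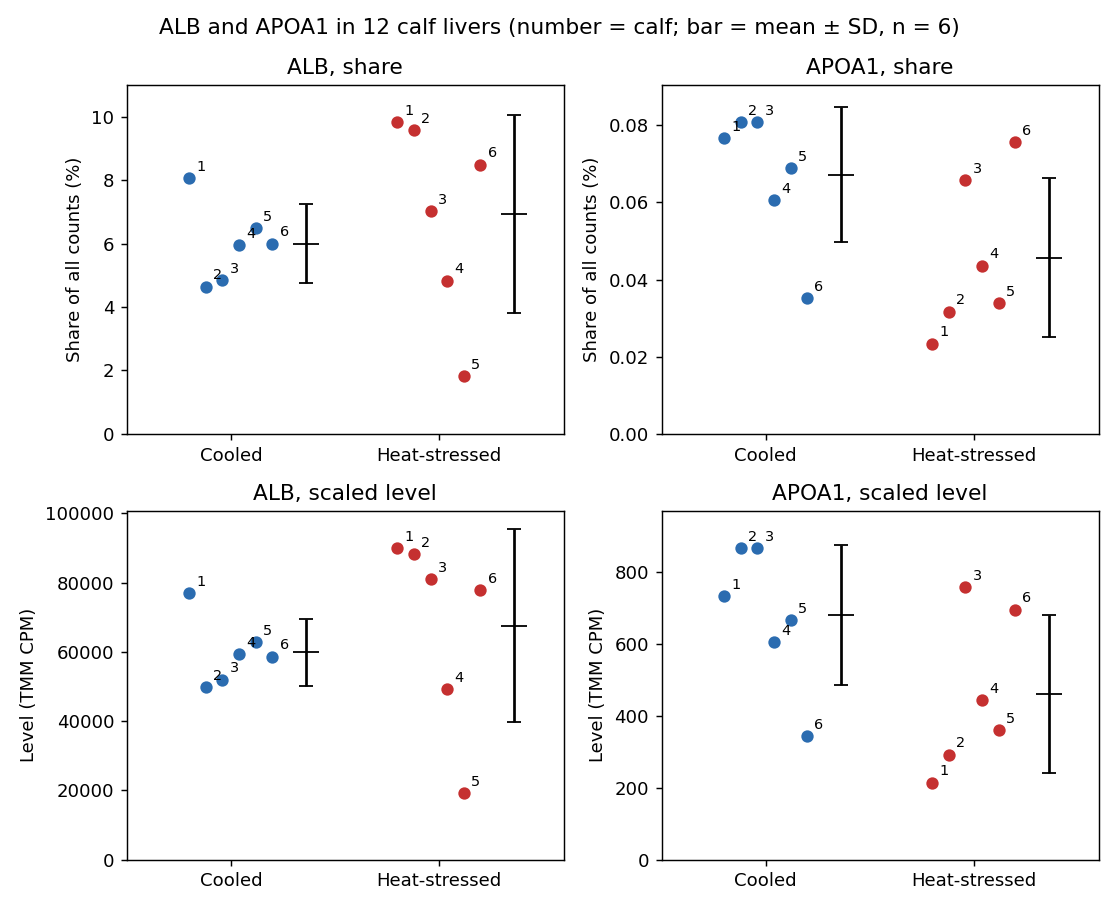
Share of all counts (top, %) and TMM-scaled level (bottom, CPM) of ALB and APOA1, 1 point per calf with its number, for 6 cooled and 6 heat-stressed calves; bars show the mean ± SD. ALB in heat-stressed calf 5 stood at 1.81% and 19208 CPM, and APOA1 was lowest in heat-stressed calf 1 at 0.0234% and 214.3 CPM.

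**Figure D2:**
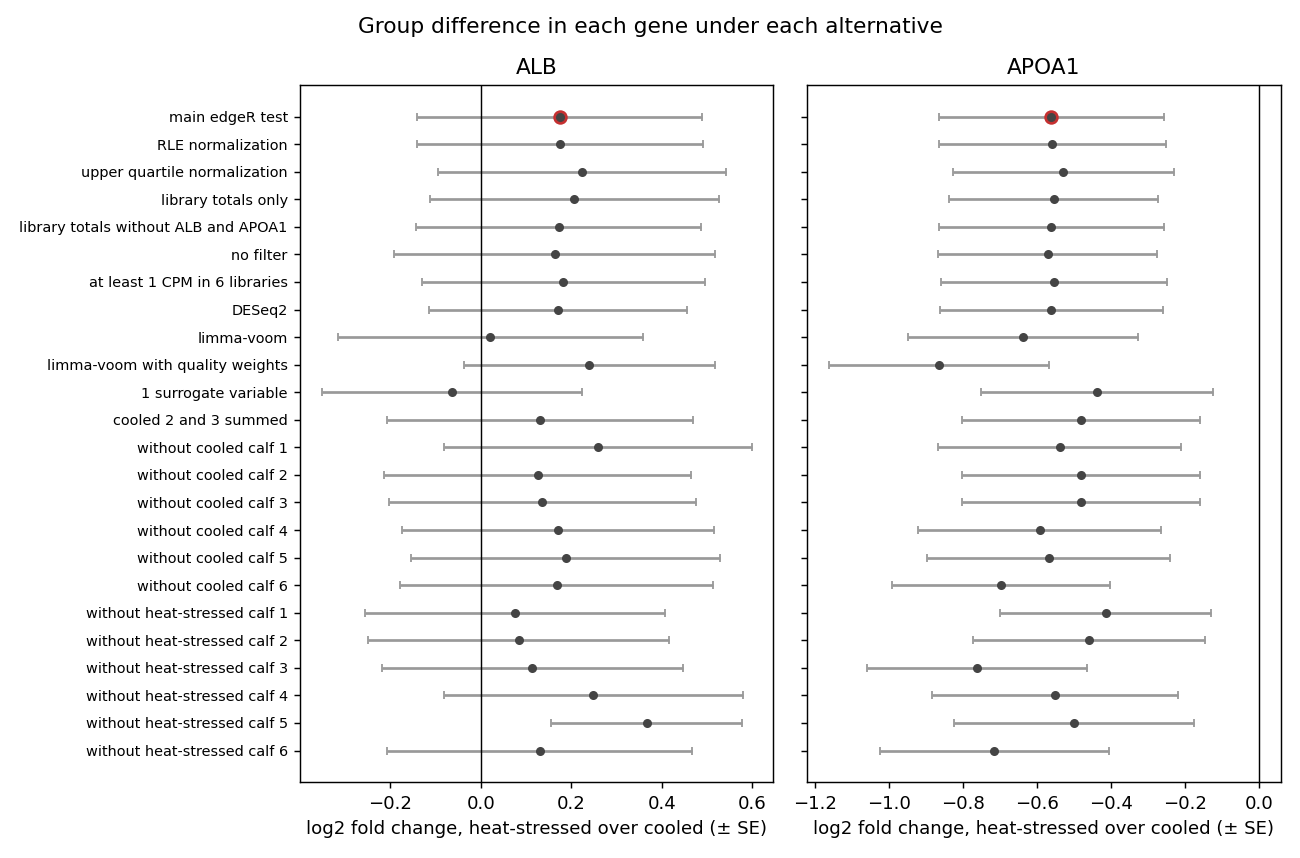
Log2 fold change (heat-stressed over cooled, ± SE) of ALB and APOA1 in the edgeR test on all calves (red) and under each alternative test, scaling, filter or left-out calf. The ALB values lay between -0.06 and 0.37, and the APOA1 values between -0.87 and -0.41.

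In the RefSeq annotation of the assembly ARS-UCD2.0, a later build than the ARS-UCD1.2 named for these tables, the span of APOA1 overlaps those of APOA4, another apolipoprotein gene, and LOC107133155. ALB lies next to AFP, the alpha-fetoprotein gene of the same family, without overlapping it. How reads in overlapping genes and on the opposite strand were counted is not given in the sources used here, so the APOA1 counts are uncertain to that extent.

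No relation between the levels of the 2 plasma protein genes was detected across calves. Heat-stressed calves 1 and 2 had the highest ALB levels of the 12 calves, at 90002 and 88312 CPM, and the lowest APOA1 levels, at 214.3 and 292.1 CPM. Heat-stressed calf 5, lowest in ALB, stood at 359.7 CPM of APOA1, above those 2 and cooled calf 6. Heat-stressed calves 3 and 6 were high in both, with ALB at 81058 and 77942 CPM and APOA1 at 758.0 and 695.1 CPM. Over all 12 calves log2 CPM of the 2 genes correlated at Pearson r = -0.0029 (permutation p = 0.994) and Spearman rho = -0.24 (permutation p = 0.444). Without heat-stressed calves 1 and 5, the calves farthest from the ALB median, r was -0.21 (permutation p = 0.557). Within groups r was -0.18 (permutation p = 0.703) in the 6 cooled and 0.04 (permutation p = 0.942) in the 6 heat-stressed calves. Both values share the library scaling.

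**Figure D3:**
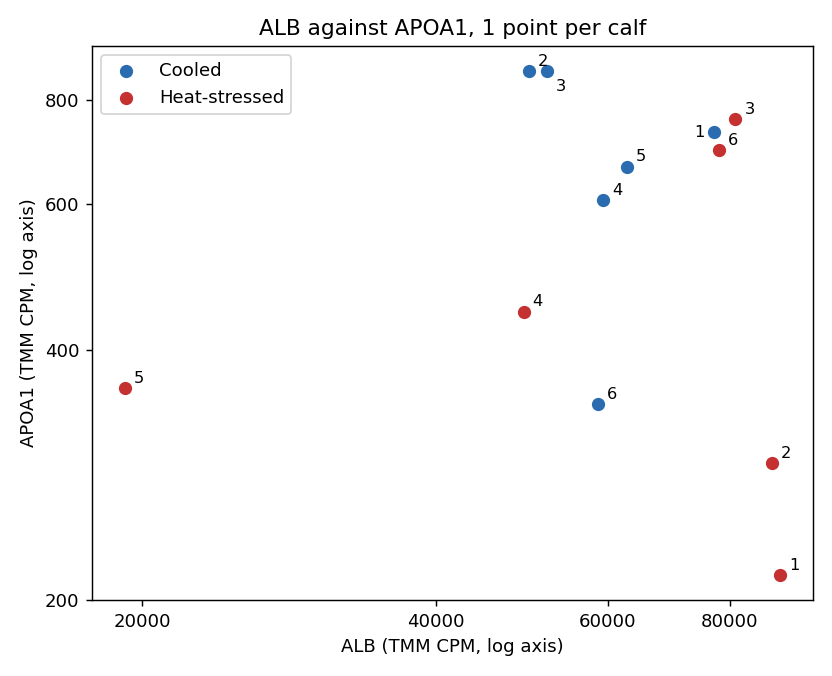
ALB against APOA1 (TMM CPM, log axes), 1 point per calf with its number. Heat-stressed calves 1 and 2 sit at the lower right with ALB at 90002 and 88312 CPM and APOA1 at 214.3 and 292.1 CPM, and heat-stressed calf 5 stands alone at the left.

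The ratio of ALB to APOA1 counts in a library depends on no scaling between libraries. In cooled calves it ran from 57.5 through a median of 96.2 to 170.6. In heat-stressed calves it ran from 53.4 through a median of 111.4 to 420.0. Heat-stressed calves 1 and 2, at 420.0 and 302.3, lay above every cooled calf, calf 5 lay below all of them, and the other 3 lay within the cooled range at 106.9 to 112.1. On the log2 scale the mean was 6.51 ± 0.58 (SD, n = 6) in cooled and 7.17 ± 1.10 (SD, n = 6) in heat-stressed calves, 0.66 apart (exact permutation test, two-sided, p = 0.201). The fold changes of the 2 genes were thus not shown to differ from each other.

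With all calves kept, both genes varied more between calves of the same group than most genes did. The within-group SD of log2 CPM was 0.63 for ALB and 0.61 for APOA1, where the median over 14924 genes was 0.36 and that over the 1353 genes at 100 CPM or more was 0.33. ALB exceeded 92.7% of those 1353 abundant genes and APOA1 91.8%. By group the SD of ALB was 0.22 in cooled and 0.87 in heat-stressed calves. Without heat-stressed calf 5 the latter was 0.36. That is the SD of 1 group, while the ranking and its medians use an SD pooled over both groups. The high place of ALB in this ranking rested largely on heat-stressed calf 5, but the pooled SD and the ranking were not computed without it. The SD of APOA1 was 0.50 in cooled and 0.71 in heat-stressed calves. The mean absolute deviation from the group median was higher in heat-stressed calves by 0.37 for ALB (p = 0.340) and by 0.23 for APOA1 (p = 0.301), neither passing a two-sided exact permutation test of the deviations.

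**Figure D4:**
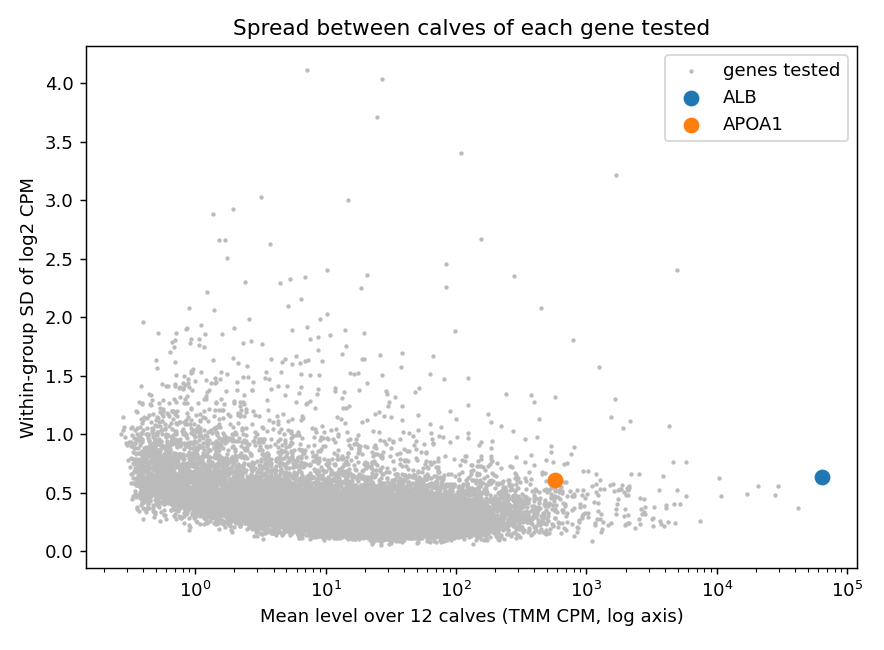
Within-group SD of log2 CPM against mean level (TMM CPM, log axis) for each of 14924 genes tested. ALB, at the far right, has an SD of 0.63 and APOA1 one of 0.61, both above the median gene at 0.36.

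Library measures moved with the 2 genes to different degrees. Of 6 relations computed, APOA1 against the number of genes with a count had the largest r over all 12 calves, with Pearson r = -0.73 (permutation p = 0.00776, adjusted 0.0466) and rho = -0.72 (permutation p = 0.0113, adjusted 0.0676). It rested on heat-stressed calves 1 and 2, which had the most genes with a count, 18977 and 18939. Without them r was -0.43 (permutation p = 0.211). ALB against the TMM factor gave r = 0.47 (permutation p = 0.117, adjusted 0.234) and rho = 0.60 (permutation p = 0.0417, adjusted 0.0734). Without cooled calf 3 and heat-stressed calf 3, the calves farthest from the median factor, r was 0.82 (permutation p = 0.00042, unadjusted). Heat-stressed calf 3, left out there, had the lowest factor of the 12, 0.867, but a high ALB level of 81058 CPM. The value without these calves thus depends on dropping a calf that ran against the relation. The TMM factor also enters the scaled level. By rank, ALB against the total count gave rho = -0.66 (permutation p = 0.0238, adjusted 0.0713), with r = -0.36 (permutation p = 0.250, adjusted 0.300). APOA1 against the TMM factor gave rho = -0.59 (permutation p = 0.0489, adjusted 0.0734), with r = -0.49 (permutation p = 0.103, adjusted 0.234). On the first principal component of all other tested genes, which held 31.5% of the variance, heat-stressed calves 1, 2 and 6 scored highest, at 52.3, 43.8 and 55.7. These 3 calves held the highest ALB shares, 9.82%, 9.58% and 8.49%. The sign of the component was set so that the heat-stressed scores had a positive total. Heat-stressed calves 4 and 5 scored -20.8 and -27.6, and the cooled calves from -32.7 to 13.8. In CPM heat-stressed calf 3, which scored -28.8 on that component, stood above calf 6 in ALB, at 81058 against 77942. In APOA1, calves 1 and 2 were the lowest of the 12 and calf 6 stood at 695.1 CPM. What part these library measures have in the levels was not tested.

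Genes whose log2 CPM across the 12 calves was most like each member were sought among 8522 others with a mean of at least 10 CPM. Closest to ALB were ENSBTAG00000026181 (r = 0.95, mean 571.1 CPM) and ENSBTAG00000018282 (r = 0.94, mean 10.3 CPM). Both were lowest in heat-stressed calf 5, and without that calf r was 0.79 for each. For 77 genes r with ALB was above 0.8, and for 67 it was below -0.8. These counts include heat-stressed calf 5 and were not repeated without it. The 2 genes named fell under 0.8 without that calf, and whether other genes then passed 0.8 was not tested. Closest to APOA1 were ENSBTAG00000046587 (r = 0.93, mean 12.02 CPM) and ENSBTAG00000021013 (r = 0.93, mean 194.1 CPM). Both were lowest in heat-stressed calf 1, at 3.70 and 119.0 CPM, and r was 0.90 and 0.91 without it. For 24 genes r with APOA1 was above 0.8 and for 4 below -0.8. These genes were picked for their high r, all values come from the same libraries, and the identifiers could not be paired with names.

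**Figure D5:**
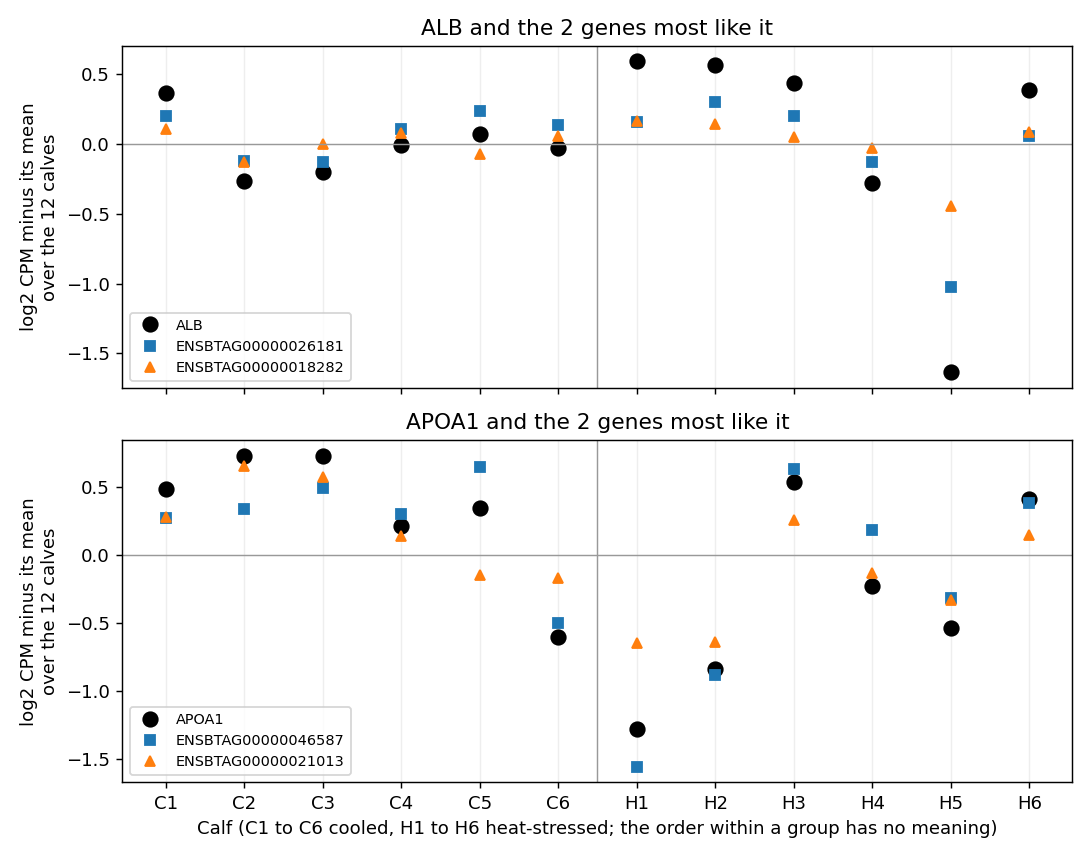
Log2 CPM minus its mean over 12 calves for ALB (top) and APOA1 (bottom) with the 2 genes most like each, by calf; the order of calves within a group has no meaning. ALB and its 2 neighbours are lowest in heat-stressed calf 5, and APOA1 and its 2 neighbours in heat-stressed calf 1.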

How the data were processed

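The authors deposited 1 table of whole-number read counts per gene for each liver, with no scaling. The submitters' processing notes list HTSeq, HISAT2, Trim Galore 0.4.4 and FastQC 0.11.7 as tools and ARS-UCD1.2 as the build. Annotation release, strand setting and the remaining tool versions are not given in the sources. Groups came from the treatment label, and calf numbers follow listing order.

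The main test was edgeR 4.0.16 in R 4.3.3: filterByExpr kept 14924 of 27570 genes (54.1%), with TMM scaling, glmQLFit and glmQLFTest on group, two-sided, and Benjamini-Hochberg adjustment over every gene tested at a threshold of 0.05. Log2 CPM used a prior count of 2, and SEs came from the fold change and F statistic. DESeq2 1.42.0, limma 3.58.1 and sva 3.50.0 served the alternatives. Shares, ratios and deviations were compared in Python 3.11.15 with scipy 1.17.1 by exact permutation over 924 assignments, whose smallest two-sided p is 0.00216. Correlations used 100000 permutations. The tests were tested on simulated data.

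Named were the 2 members and, for each, the 2 genes of highest r. Lists of plasma proteins, lipoprotein genes, liver transcription factors, secretory folding genes and cell type markers were drawn up by symbol, but 0 of 27570 identifiers matched the RefSeq gene table used here, so none was run. The members, lists and alternatives were chosen with earlier results of these data known.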

Additional observations from a re-analysis of the deposited data

How the results depend on the processing

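Neither gene passed an adjusted p of 0.05 under any alternative tried: other scalings, filters, DESeq2, limma-voom, a surrogate variable, summing cooled calves 2 and 3, or leaving out 1 calf. The log2 fold change of APOA1 stayed negative in all of them, and that of ALB stayed positive except with 1 surrogate variable, at -0.064. The cause was not tested. Leaving out 1 calf gave log2 fold changes from 0.08 to 0.37 for ALB and from -0.76 to -0.41 for APOA1, with an unadjusted edgeR p for APOA1 of 0.0319 when cooled calf 6 was left out, 0.0229 for heat-stressed calf 3 and 0.0359 for heat-stressed calf 6 (adjusted p from 0.260 to 0.841 over all left-out calves). It gave share differences from 0.347 to 1.95 percentage points for ALB, the highest when heat-stressed calf 5 was dropped. The exact permutation p for ALB ran from 0.0909, without that calf, to 0.823, against 0.524 with all calves. For APOA1 the share differences ran from -0.0279 to -0.0170, with an exact permutation p from 0.0346 to 0.173.

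Over left-out calves the difference in the log2 ratio of ALB to APOA1 counts ran from 0.35, when heat-stressed calf 1 was dropped, to 0.95, when calf 5 was (exact permutation p = 0.403 and 0.0693).

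The correlation of ALB with APOA1, near 0, changed sign with log2 shares (r = 0.0093), with totals without both genes (0.055), with deviations from the group mean (0.0068), with cooled calves 2 and 3 summed (0.041), and over left-out calves from -0.43, when heat-stressed calf 5 was dropped, to 0.24, when heat-stressed calf 1 was. None had a permutation p under 0.05. Leaving out 1 calf from the comparison of spread, chosen after seeing the data, gave 0.06 to 0.46 for ALB, the lowest without heat-stressed calf 5, and 0.13 to 0.38 for APOA1. No paired analysis was possible because calf numbers were given in listing order and pair no animals. Counting error was small for both genes: each side of the 95% Wilson interval was at most 2.51% of the share, in APOA1 of heat-stressed calf 1.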

Other observations

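For the shares, log2 CPM levels and count ratio of ALB and APOA1, the calf at either end of its group was set against Dixon's critical value of 0.625 for 6 calves. Of 10 sets of 6 calves, 0 exceeded it. The nearest were cooled calf 6 in log2 CPM of APOA1, at 0.612, and heat-stressed calf 5 in log2 CPM of ALB, at 0.609.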
